A study of Mus musculus with 18 samples.

Results

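The genes described here are 10 transcripts that mark endothelial cells, the lining of blood vessels, in glomeruli and other vessels of the kidney: Flt1, Kdr, Tek, Eng, Cdh5, Pecam1, Egfl7, Emcn, Plvap and Ehd3. They were taken by name from a table of 24602 mouse genes, by a list that uses no measured value but was drawn up with earlier results of these data known. All 10 passed the filter on low counts in every comparison. Gene-level RNA-seq read counts covered 18 libraries, 3 in each of 6 groups, which combined 2 RNA fractions with 3 genotypes of Nup93, a scaffold protein of the nuclear pore. The mice carried a knock-in of the R388W substitution on the 129S1/SvlmJ strain. The groups were nuclear RNA of homozygous (Nuclear_Hom), heterozygous (Nuclear_Het) and wild-type mice (Nuclear_WT), and total RNA of homozygous (Total_Hom), heterozygous (Total_Het) and wild-type mice (Total_WT). The labels name no promoter or cell type that would limit the knock-in allele. The labels do not tie the 3 replicates of any group to separate animals. The p-values therefore measure only the spread between these libraries.

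Glomerular capillaries are lined by a thin, fenestrated endothelium that shares a basement membrane with the podocytes, the epithelial cells on its outer side. Podocytes secrete VEGF-A, and the endothelium reads it through the receptors Kdr and Flt1, while Tek reads the angiopoietins and endoglin (Eng) acts with the receptor Acvrl1 in BMP and TGF-beta signalling. Cdh5 and Pecam1 hold endothelial cells together, and Plvap and Ehd3 are markers of different vessels: Plvap of peritubular capillaries and veins, Ehd3 of mature glomerular capillaries.

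Libraries held 17405493 to 23462056 counts, and each of the 10 genes had 696 to 9335 counts in every library. The deposited column of Total_WT replicate 1 held 200140709 counts and was at or above the sum of the 9 nuclear columns in every gene. That sum, 181106189 counts, was subtracted and 19034520 counts were used. Values given below with this column as deposited keep the 181106189 counts in it. Total_Hom replicate 2 held 7.12% of its counts in Rn45s, the ribosomal RNA precursor, against 0.110% to 1.02% in the other libraries. Podocytes are named in the series text, but the label of each sample gives no more than mouse tissue. Summed podocyte markers (10 genes) lay between 286 and 522 CPM (counts-per-million over TMM-scaled library totals) as group means, and summed proximal tubule markers (10 genes) between 27677 and 34017 CPM, so tubule markers exceeded podocyte markers in every group. Nup93 averaged 15.9 to 22.5 CPM over the groups, and a gene count cannot show a base substitution. Xist, transcribed from the inactive X chromosome, averaged 504 CPM in Nuclear_Hom, 515 in Nuclear_Het and 0.540 in Nuclear_WT, and 1.25 in Total_Hom, 0.624 in Total_Het and 345 in Total_WT. The sum of 4 Y-linked genes (Uty, Ddx3y, Kdm5d and Eif2s3y) ran the other way, from 0.610 to 2.58 CPM in the 3 groups with high Xist and from 155 to 163 CPM in the 3 with low Xist. Hom against Het, within either fraction, therefore compared libraries of like Xist status. Within that likeness the Y-linked sum was 0.610 CPM in Nuclear_Hom and 2.58 in Nuclear_Het. Of the 5 sex-linked genes (Xist and these 4), 0 were called higher and 4 lower in Nuclear_Hom against Nuclear_Het (median log2 -1.69). In Total_Hom against Total_Het 3 were called higher and 2 lower (median log2 0.13). In every comparison with WT, and in every comparison of nuclear with total RNA, sex and the named difference cannot be told apart.

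The summed level of the 10 genes was highest in total RNA of homozygous mice. It came to 1598 ± 4.08 CPM in Total_Hom, 1065 ± 4.68 CPM in Total_Het and 1383 ± 10.5 CPM in Total_WT (mean ± SD, n = 3 each), and to 1005 ± 2.77 CPM in Nuclear_Hom, 928 ± 14.8 CPM in Nuclear_Het and 917 ± 2.83 CPM in Nuclear_WT. Libraries of the 3 total groups did not overlap, at 1594 to 1602 CPM in Total_Hom, 1060 to 1070 CPM in Total_Het and 1372 to 1393 CPM in Total_WT. In bulk libraries, more endothelial cells and more RNA per endothelial cell cannot be told apart. By gene, the highest group mean was Total_Hom for 8 of the 10 and Total_WT for Eng and Kdr. The lowest was Nuclear_WT for 7, Nuclear_Het for Tek and Kdr, and Nuclear_Hom for Cdh5.

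**Figure D1:**
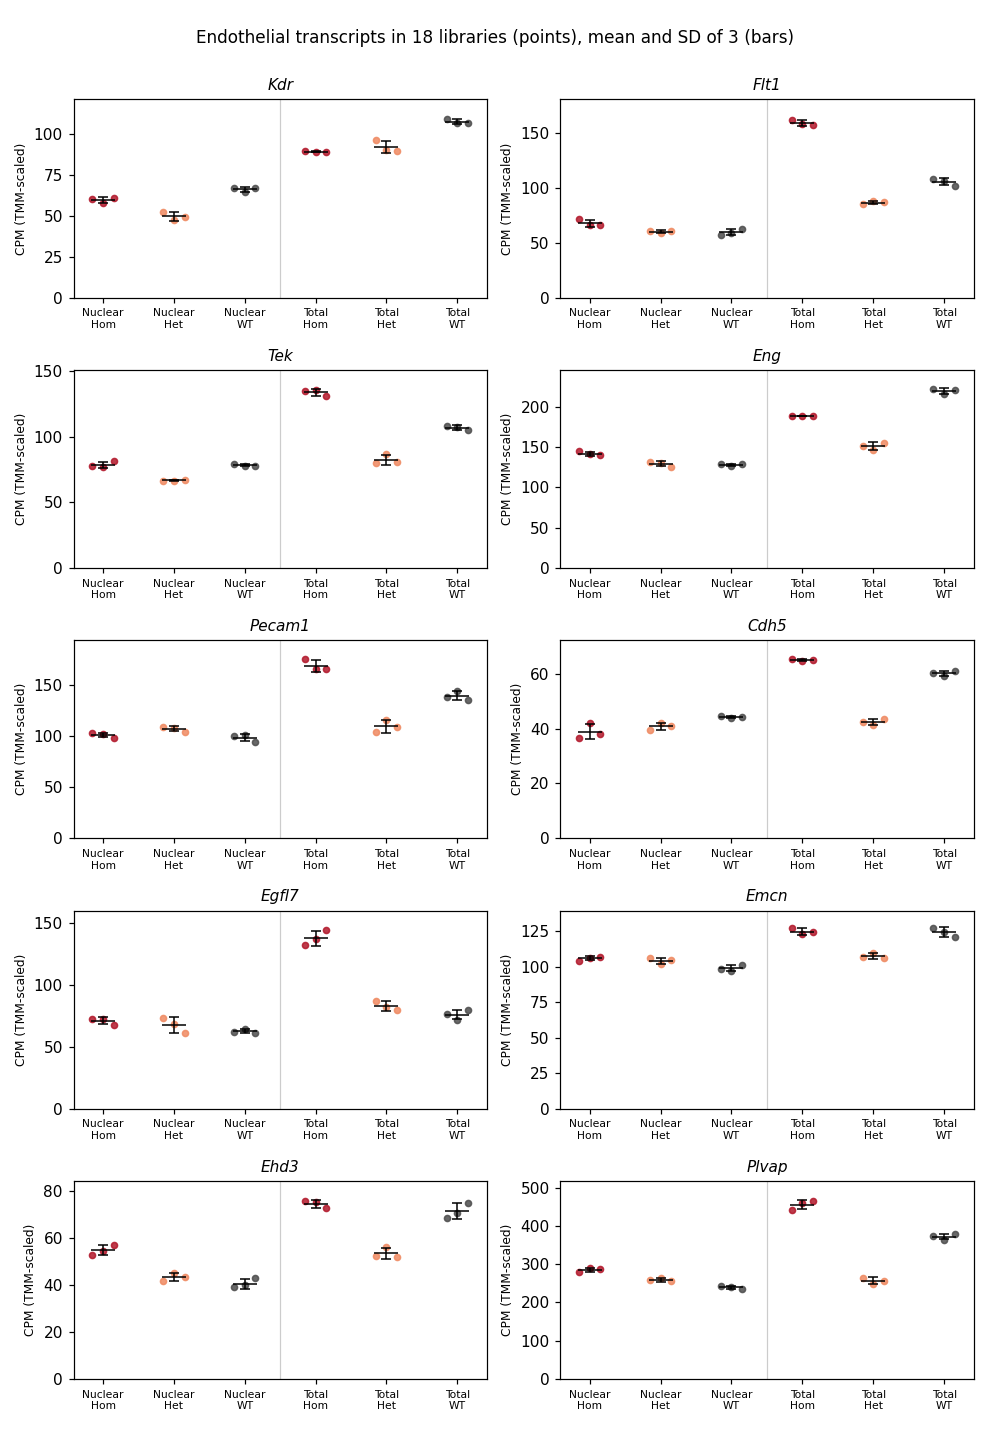
Level of each of the 10 endothelial genes in every library, in TMM-scaled CPM on axes that start at 0, with 3 points and the mean for each of the 6 groups. Total_Hom holds the highest mean for 8 genes, and Eng and Kdr are highest in Total_WT.

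Set against transcript length, Plvap, the diaphragm protein of fenestrae and caveolae, had the highest level, at a mean of 154 CPM per kilobase over the 18 libraries. Emcn, a sialomucin of the capillary and venous surface, followed at 76.0 and Egfl7, a matrix protein secreted by endothelium, at 51.1. Eng stood at 44.7 and Pecam1 at 36.2. The 5 lowest levels were 19.4 for Tek, 15.4 for Ehd3, 14.3 for Flt1, 14.2 for Kdr and 12.2 for Cdh5, so Flt1 and Kdr were nearly equal per kilobase. The range over group means differed more: the highest group mean of Flt1 was 2.68 times its lowest, and that of Emcn 1.26 times. Within groups the coefficient of variation over the 3 libraries was between 0.202% and 9.13% for these genes.

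In total RNA of homozygous against heterozygous mice, both with low Xist, most of the 10 endothelial genes were higher in homozygous mice. Of the 10, 9 rose in Total_Hom, 0 fell and Kdr alone was not called, with a median log2 difference of 0.62 beside 0.01 for all genes. Among all 15051 genes tested 67% were called at an edgeR adjusted p under 0.05 (edgeR's quasi-likelihood test, Benjamini-Hochberg adjustment over all genes), 32.9% higher and 34.1% lower. The share of the 10 called higher thus lay above the background in that direction, while a call in itself was common. The 10 are markers of the same cell type, listed with earlier results known, so this describes them and is no test. All 10 genes had libraries that did not overlap between Total_Hom and Total_Het. The share of all genes without overlap was not computed, here or in the other comparisons, so such counts have no background. Podocyte markers rose as well (10 of 10), and their part in these values was not tested. Scaling by library totals alone moved the median of all genes to 0.16 and called 10105 of all 15051. It called all 10 higher, Kdr at 0.11 and Emcn at 0.37.

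Endothelial genes were lower in total RNA of heterozygous than of wild-type mice. Of the 10 genes 9 fell in Total_Het and 1, Egfl7, rose (median log2 -0.36, all genes -0.01), where 61.1% of all genes were called, 30.9% higher and 30.3% lower. Libraries of Total_Het and Total_WT did not overlap for any of the 10, and podocyte markers fell as well (10 of 10), their part not tested. Library totals alone moved the median of all genes to -0.19 and called 9779 of all 15051. Of the 10 they called 9 lower and 0 higher, with Pecam1 at -0.53, Flt1 at -0.46, Kdr at -0.40 and Emcn at -0.39. In Total_Hom against Total_WT, 6 genes rose, 2 fell and 2 were not called (median log2 0.19, all genes -0.00), with 61.6% of all genes called, 30.6% higher and 31% lower. Both comparisons use Total_WT replicate 1 after the subtraction. Without that library all 10 genes (8723 of all 15214 tested) were still called in Total_Het against Total_WT. In Total_Hom against Total_WT 8 of the 10 (8668 of all 15214) were. With its column as deposited, 2 of the 10 genes (7044 of all 15001 tested) were called in Total_Het against Total_WT. In Total_Hom against Total_WT 5 of the 10 (7184 of all 15001) were then called. The 3 comparisons within total RNA share libraries, and those of Total_Het and Total_Hom with Total_WT also set low against high Xist.

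In nuclear RNA the log2 differences between genotypes lay between -0.40 and 0.44. Of the 10 genes 6 rose, 1 fell and 3 were not called in Nuclear_Hom against Nuclear_Het, both with high Xist (median log2 0.13, all genes -0.00), where 43.2% of all genes were called, 21.4% higher and 21.8% lower. Nuclear_Hom against Nuclear_WT gave 6 higher, 2 lower and 2 not called (median log2 0.13, all genes 0.02), with 54.3% of all genes called, 26.5% higher and 27.8% lower. Nuclear_Het against Nuclear_WT gave 5 higher, 2 lower and 3 not called (median log2 0.06, all genes 0.02), close to the background of 64.6% called, 32.8% higher and 31.7% lower. Scaling by library totals alone called 5 higher and 2 lower in Nuclear_Hom against Nuclear_Het (median of all genes -0.06), 8 and 0 in Nuclear_Hom against Nuclear_WT (0.14), and 7 and 1 in Nuclear_Het against Nuclear_WT (0.20). Of all 15112 genes it called 6732, 9027 and 10694 in the same order. In Nuclear_Hom against Nuclear_Het it gave -0.15 for Pecam1, 0.07 for Eng and 0.08 for Plvap. In Nuclear_Hom against Nuclear_WT it gave 0.32 for Flt1, 0.28 for Eng, 0.31 for Egfl7 and 0.22 for Emcn, and in Nuclear_Het against Nuclear_WT 0.31 for Pecam1, 0.30 for Egfl7, 0.26 for Emcn, 0.29 for Ehd3, 0.30 for Plvap and -0.23 for Kdr. DESeq2 called 4 genes rather than 7 in Nuclear_Het against Nuclear_WT, where it called 8815 of all 15112 genes and edgeR 9757. Groups did not overlap for 7 of the 10 genes in Nuclear_Hom against Nuclear_Het, 8 in Nuclear_Hom against Nuclear_WT and 6 in Nuclear_Het against Nuclear_WT, again with no share over all genes computed. Immune markers were higher (9 of 10) in Nuclear_Het against Nuclear_WT and lower (9 of 10) in Nuclear_Hom against Nuclear_Het, as were podocyte markers (9 of 10 higher and 8 of 10 lower), and their part was not tested.

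**Figure D2:**
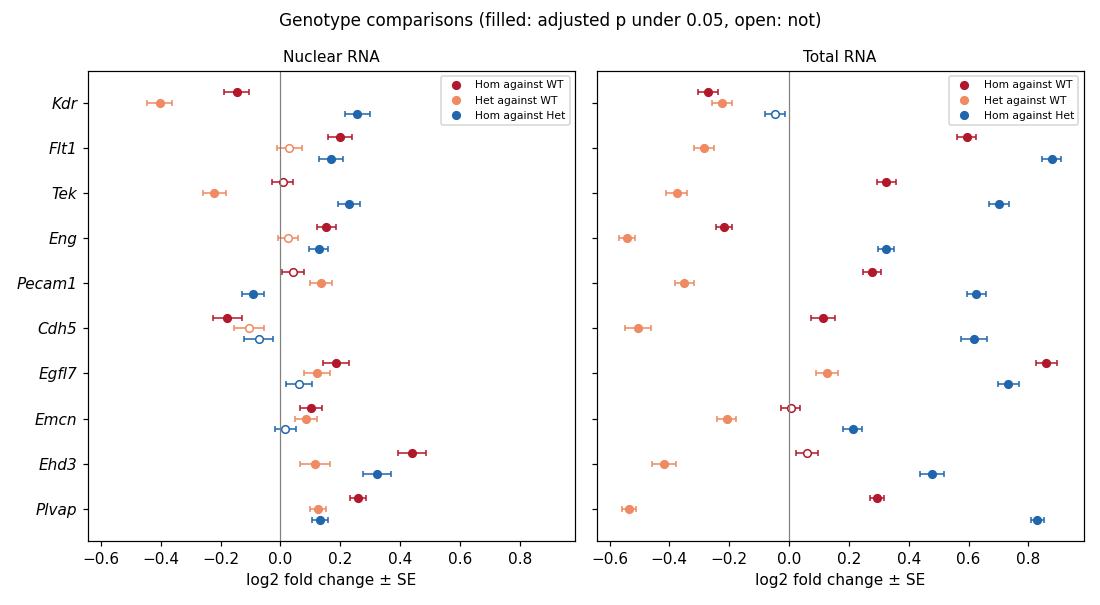
Log2 difference of each endothelial gene (horizontal axis, edgeR) between genotypes within nuclear and within total RNA, with bars of 1 SE. The differences between Total_Hom and Total_Het lie between -0.05 for Kdr (0.11 with library totals alone) and 0.88 for Flt1, and those between nuclear groups between -0.40 and 0.44.

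The VEGF receptors Flt1 and Kdr did not share a pattern over the groups. Flt1 binds VEGF-A most tightly and in its soluble form traps it, and Kdr is the receptor that carries most of the VEGF-A signal in endothelium. Their promoters are printed because these neighbours in function differed in total RNA, a choice made after their values were seen, and that of Ehd3 because it marks the glomerular capillary. Each is the 250 bases before the annotated start on the gene's own strand, from RefSeq on GRCm38.p6, a build other than the mm9 named for the counts. Capitals mark the form AGGAAG (or CTTCCT, its reverse complement) of the core bound by ETS factors, a family that includes the endothelial regulators Erg and Fli1. Other forms of that core were not searched, so a count of 0 does not mean that a window lacks them.
Flt1 (chr5:147726012-147726261, minus strand): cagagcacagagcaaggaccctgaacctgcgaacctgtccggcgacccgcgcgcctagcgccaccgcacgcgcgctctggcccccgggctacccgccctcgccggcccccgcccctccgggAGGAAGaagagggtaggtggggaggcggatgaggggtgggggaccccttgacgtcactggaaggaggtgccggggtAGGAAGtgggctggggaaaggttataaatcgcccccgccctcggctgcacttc
Kdr (chr5:75978456-75978705, minus strand): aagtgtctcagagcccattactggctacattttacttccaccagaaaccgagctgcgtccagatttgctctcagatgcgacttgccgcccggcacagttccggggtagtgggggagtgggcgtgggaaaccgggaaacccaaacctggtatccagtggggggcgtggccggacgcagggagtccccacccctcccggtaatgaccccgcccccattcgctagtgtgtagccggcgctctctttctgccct
Ehd3 (chr17:73804591-73804840, plus strand): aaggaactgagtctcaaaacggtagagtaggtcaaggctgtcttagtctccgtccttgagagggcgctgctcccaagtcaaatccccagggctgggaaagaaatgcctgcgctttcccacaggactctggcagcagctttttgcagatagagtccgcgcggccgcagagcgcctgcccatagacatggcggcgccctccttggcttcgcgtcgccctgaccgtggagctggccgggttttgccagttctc
Flt1 held 2 such cores, whose first bases lie 129 and 53 bases before the start, and Kdr and Ehd3 held 0. Of the other genes with a window, Eng and Emcn held 2 each, Tek held 0, and the 3 windows of Egfl7 held 3, 1 and 0. Of 32851 mouse windows of this length, 29.5% held at least 1. The form AGATAA (or TTATCT) of the GATA motif, which 9.99% of windows held, was found in none (0) of the 9 windows of the 7 genes of the 10 with a RefSeq window here. Other forms of the GATA motif were not searched, so these windows may hold them. The cores do not overlap, and a match of letters is not a measured site.

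In total RNA Flt1 stood at 162, 159 and 157 CPM in Total_Hom, 85.3, 87.9 and 87.3 CPM in Total_Het and 108, 107 and 102 CPM in Total_WT. Every Total_Hom library lay above every Total_WT library, and these above every Total_Het library. Flt1 rose in Total_Hom against Total_Het (log2 0.88 ± 0.03, edgeR adjusted p 2.89e-56) and against Total_WT (log2 0.59 ± 0.03, edgeR adjusted p 1.65e-39), and it fell in Total_Het against Total_WT (log2 -0.28 ± 0.03, edgeR adjusted p 7.85e-14). The last of these was -0.07 with the Total_WT replicate 1 column as deposited and was then not called. In nuclear RNA Flt1 stood at 71.4, 65.9 and 66.4 CPM in Nuclear_Hom, 61.0, 58.6 and 60.6 CPM in Nuclear_Het and 57.4, 58.5 and 62.5 CPM in Nuclear_WT. Nuclear_Hom lay above the other 2 groups, which overlapped. It rose in Nuclear_Hom against Nuclear_WT (log2 0.20 ± 0.04, edgeR adjusted p 2.18e-05) and against Nuclear_Het (log2 0.17 ± 0.04, edgeR adjusted p 0.000334), and the difference of Nuclear_Het from Nuclear_WT was log2 0.03 ± 0.04, edgeR adjusted p 0.558, or 0.21 and a call with library totals alone.

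In total RNA Kdr stood at 89.2, 88.8 and 88.6 CPM in Total_Hom, 96.2, 90.0 and 89.4 CPM in Total_Het and 109, 107 and 107 CPM in Total_WT. Both mutant groups lay below Total_WT, and Total_Hom just below Total_Het. Kdr fell in Total_Hom against Total_WT (log2 -0.27 ± 0.03, edgeR adjusted p 4.84e-13) and in Total_Het against Total_WT (log2 -0.22 ± 0.03, edgeR adjusted p 1.51e-09), but these calls ended with Total_WT replicate 1 as deposited, at -0.03 and 0.01. Total_Hom against Total_Het differed by log2 -0.05 ± 0.03, edgeR adjusted p 0.21, which was not called. In nuclear RNA Kdr stood at 59.8, 57.8 and 60.9 CPM in Nuclear_Hom, 52.3, 47.3 and 48.8 CPM in Nuclear_Het and 66.9, 64.2 and 67.1 CPM in Nuclear_WT. The 3 nuclear groups did not overlap, with Nuclear_Het lowest. Kdr fell in Nuclear_Het against Nuclear_WT (log2 -0.40 ± 0.04, edgeR adjusted p 3.81e-14) and rose in Nuclear_Hom against Nuclear_Het (log2 0.26 ± 0.04, edgeR adjusted p 3.33e-07). It fell in Nuclear_Hom against Nuclear_WT (log2 -0.15 ± 0.04, edgeR adjusted p 0.00163), a call lost at -0.02 when libraries were scaled by their totals alone.

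The log2 ratio of Flt1 to Kdr within a library was 0.86, 0.84 and 0.83 in Total_Hom, -0.17, -0.03 and -0.03 in Total_Het and -0.00, 0.00 and -0.06 in Total_WT. In nuclear RNA it was 0.26, 0.19 and 0.12 in Nuclear_Hom, 0.22, 0.31 and 0.31 in Nuclear_Het and -0.22, -0.13 and -0.10 in Nuclear_WT. Total_Hom thus stood alone, with Flt1 well above Kdr, and Nuclear_WT was the group with the lowest mean. This ratio needs no scaling between libraries, and it was chosen after the values were seen, so no test is given. Among VEGF and angiopoietin ligands and co-receptors 5 of 9 tested were higher and 1 lower (median log2 0.24) in Total_Hom against Total_Het, or 7 and 0 with library totals alone. The receptor Tie1 rose (log2 0.76 ± 0.03, edgeR adjusted p 1.52e-46), as did the semaphorin and VEGF co-receptor Nrp2 (log2 0.67 ± 0.05, edgeR adjusted p 1.11e-26) and the Tek ligand Angpt2 (log2 0.74 ± 0.06, edgeR adjusted p 1.03e-24). In Total_Het against Total_WT 0 of 9 tested were higher and 8 lower (median log2 -0.29), among them Angpt2 (log2 -1.13 ± 0.05, edgeR adjusted p 1e-42), or 5 lower with Total_WT replicate 1 as deposited. In Nuclear_Hom against Nuclear_Het 0 of 9 tested were higher and 2 lower (median log2 -0.02).

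**Figure D3:**
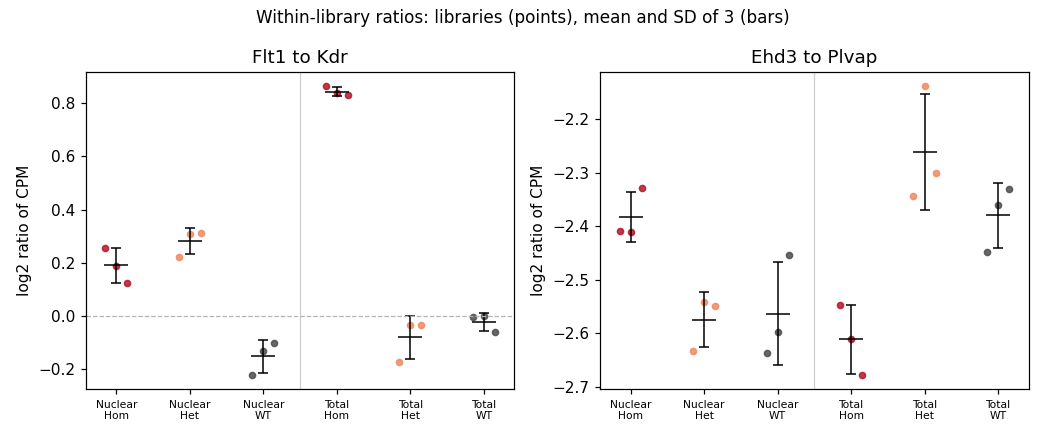
Log2 ratio of Flt1 to Kdr and of Ehd3 to Plvap in each library, with 3 points and the mean for each of the 6 groups. Flt1 to Kdr lies between 0.83 and 0.86 in Total_Hom and at or below 0.31 in the other groups, and Ehd3 to Plvap has its lowest mean in Total_Hom.

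Tek, the angiopoietin receptor that keeps endothelium quiescent, had the same order in total RNA as Flt1. It stood at 135, 136 and 131 CPM in Total_Hom, 80.0, 86.9 and 80.8 CPM in Total_Het and 109, 108 and 105 CPM in Total_WT. None of the 3 total groups overlapped. Tek rose in Total_Hom against Total_Het (log2 0.70 ± 0.03, edgeR adjusted p 9.34e-44) and against Total_WT (log2 0.32 ± 0.03, edgeR adjusted p 1.01e-17), and fell in Total_Het against Total_WT (log2 -0.38 ± 0.03, edgeR adjusted p 5.71e-20), the last with -0.22 and no call when Total_WT replicate 1 was used as deposited. In nuclear RNA Tek stood at 77.5, 77.2 and 81.3 CPM in Nuclear_Hom, 66.7, 66.5 and 67.2 CPM in Nuclear_Het and 79.6, 78.0 and 78.1 CPM in Nuclear_WT. Nuclear_Het lay below the other 2 groups, which overlapped. Tek rose in Nuclear_Hom against Nuclear_Het (log2 0.23 ± 0.04, edgeR adjusted p 2.02e-07) and fell in Nuclear_Het against Nuclear_WT (log2 -0.22 ± 0.04, edgeR adjusted p 2.67e-07), although the fall in Nuclear_Het gave -0.04 and no call with library totals alone. The difference of Nuclear_Hom from Nuclear_WT was log2 0.01 ± 0.04, edgeR adjusted p 0.889, or 0.13 and a call with library totals alone.

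Endoglin followed another order in total RNA, with Total_WT highest. Eng stood at 189, 189 and 188 CPM in Total_Hom, 151, 146 and 156 CPM in Total_Het and 223, 216 and 220.3 CPM in Total_WT. The 3 total groups did not overlap. Eng rose in Total_Hom against Total_Het (log2 0.32 ± 0.03, edgeR adjusted p 5.8e-22) and fell in Total_Het against Total_WT (log2 -0.54 ± 0.03, edgeR adjusted p 2.9e-41) and in Total_Hom against Total_WT (log2 -0.22 ± 0.03, edgeR adjusted p 7.89e-13). All 3 calls ended with Total_WT replicate 1 as deposited, at 0.33, -0.35 and -0.02. Total_Hom against Total_Het holds no Total_WT library but takes its spread estimate from the 9 total libraries, and its value hardly moved. That call was kept when only the compared groups were fitted. In nuclear RNA Eng stood at 145, 141 and 140.0 CPM in Nuclear_Hom, 131, 131 and 126 CPM in Nuclear_Het and 129, 127 and 128 CPM in Nuclear_WT. Only Nuclear_Hom lay apart, and Eng rose there against Nuclear_WT (log2 0.15 ± 0.03, edgeR adjusted p 2.55e-05) and against Nuclear_Het (log2 0.13 ± 0.03, edgeR adjusted p 0.000522, or 0.07 and no call with library totals alone). Nuclear_Het differed from Nuclear_WT by log2 0.03 ± 0.03, edgeR adjusted p 0.505, or 0.07 and a call with a floor of 5 CPM on the mean level and 0.20 and a call with library totals alone. An exon of Eng overlaps one of Fpgs on the opposite strand, and the strand setting of the counting is not stated, so reads of the 2 genes may be mixed.

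Among genes of the endoglin and ALK1 pathway 13 of 13 tested were higher and 0 lower (median log2 0.34) in Total_Hom against Total_Het. The inhibitors of DNA binding Id3 (log2 1.18 ± 0.04, edgeR adjusted p 3.25e-55) and Id1 (log2 1.51 ± 0.06, edgeR adjusted p 4.15e-49), direct targets of BMP signalling, and the inhibitory Smad6 (log2 0.93 ± 0.08, edgeR adjusted p 1.81e-21) rose. In Total_Hom against Total_WT 9 of 13 tested were higher and 0 lower (median log2 0.15), again with Id3 (log2 1.26 ± 0.04, edgeR adjusted p 2.28e-59) and Id1 (log2 1.46 ± 0.06, edgeR adjusted p 2.2e-49). In Total_Het against Total_WT 1 of 13 tested was higher and 8 lower (median log2 -0.11), with Smad6 among those that fell (log2 -0.66 ± 0.08, edgeR adjusted p 2.7e-12), or 0 higher and 2 lower with Total_WT replicate 1 as deposited. In Nuclear_Hom against Nuclear_Het 3 of 13 tested were higher and 4 lower (median log2 -0.03): Id1 rose (log2 0.90 ± 0.07, edgeR adjusted p 1.26e-14) and the TGF-beta receptor Tgfbr2 fell (log2 -0.46 ± 0.03, edgeR adjusted p 2.23e-21). These genes are also expressed outside endothelium.

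Cdh5, or VE-cadherin, is the adhesion molecule of endothelial adherens junctions. It stood at 65.4, 64.6 and 64.8 CPM in Total_Hom, 42.4, 41.2 and 43.4 CPM in Total_Het and 60.2, 59.1 and 60.8 CPM in Total_WT. Total_Het was lowest and the 3 groups did not overlap. Cdh5 rose in Total_Hom against Total_Het (log2 0.62 ± 0.04, edgeR adjusted p 3e-28) and fell in Total_Het against Total_WT (log2 -0.51 ± 0.04, edgeR adjusted p 3.26e-21). It rose slightly in Total_Hom against Total_WT (log2 0.11 ± 0.04, edgeR adjusted p 0.00848). With Total_WT replicate 1 as deposited the last 2 were -0.34 and 0.29 and were not called, and with library totals alone the last was 0.09 and was not called. In nuclear RNA Cdh5 stood at 36.7, 42.1 and 37.8 CPM in Nuclear_Hom, 39.5, 42.1 and 40.8 CPM in Nuclear_Het and 44.5, 43.9 and 44.2 CPM in Nuclear_WT, with Nuclear_WT highest. It fell in Nuclear_Hom against Nuclear_WT (log2 -0.18 ± 0.05, edgeR adjusted p 0.00154), a call that library totals alone ended at -0.05. The differences of Nuclear_Het from Nuclear_WT (log2 -0.10 ± 0.05, edgeR adjusted p 0.0594) and of Nuclear_Hom from Nuclear_Het (log2 -0.07 ± 0.05, edgeR adjusted p 0.244) were not called. The first of these became a call without Nuclear_Het replicate 2 (-0.13), with RLE size factors (-0.11), with no low-count filter (-0.12) and in 1 fit of all 18 libraries (-0.11), and it turned to 0.07 with library totals alone. The second became a call without Nuclear_Hom replicate 2 (-0.14) and with library totals alone (-0.13).

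Pecam1, an adhesion molecule at the borders of endothelial cells and also on platelets and leukocytes, stood at 175, 166 and 165 CPM in Total_Hom, 104, 116 and 109 CPM in Total_Het and 139, 144 and 135 CPM in Total_WT. Total_Hom was highest and Total_Het lowest, with no overlap. It rose in Total_Hom against Total_Het (log2 0.63 ± 0.03, edgeR adjusted p 6.58e-38) and against Total_WT (log2 0.28 ± 0.03, edgeR adjusted p 2.79e-14), and fell in Total_Het against Total_WT (log2 -0.35 ± 0.03, edgeR adjusted p 1e-18, or -0.23 and no call with Total_WT replicate 1 as deposited). In nuclear RNA it stood at 103, 102 and 98.6 CPM in Nuclear_Hom, 109, 108 and 104 CPM in Nuclear_Het and 100.4, 101 and 94.4 CPM in Nuclear_WT, with Nuclear_Het highest. Pecam1 rose in Nuclear_Het against Nuclear_WT (log2 0.14 ± 0.04, edgeR adjusted p 0.000803). It fell in Nuclear_Hom against Nuclear_Het (log2 -0.09 ± 0.04, edgeR adjusted p 0.0306), a call lost without Nuclear_Het replicate 1 or 2, without Nuclear_Hom replicate 3, with DESeq2 and with no low-count filter, at -0.08 to -0.09. Nuclear_Hom differed from Nuclear_WT by log2 0.04 ± 0.04, edgeR adjusted p 0.331, or 0.17 and a call with library totals alone. Summed platelet and megakaryocyte markers (6 genes) were 17.1 ± 0.60 CPM in Total_Hom, 11.8 ± 0.67 in Total_Het and 10.4 ± 0.66 in Total_WT, and their part in Pecam1 was not tested.

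Among partners of these adhesion molecules in adherens and tight junctions 6 of 9 tested were higher and 1 lower (median log2 0.20) in Total_Hom against Total_Het, led by the endothelial junction molecule Jam2 (log2 1.53 ± 0.06, edgeR adjusted p 6.22e-55). F11r, a junction molecule of epithelium and endothelium (log2 0.47 ± 0.03, edgeR adjusted p 7.52e-33), and plakoglobin, Jup (log2 0.33 ± 0.03, edgeR adjusted p 1.99e-24), rose less. In Total_Hom against Total_WT 5 of 9 tested were higher and 2 lower (median log2 0.10), with Jam2 higher (log2 1.22 ± 0.05, edgeR adjusted p 8.24e-48) and beta-catenin, Ctnnb1, lower (log2 -0.21 ± 0.02, edgeR adjusted p 2.43e-20). In Nuclear_Hom against Nuclear_Het 0 of 9 tested were higher and 4 lower (median log2 -0.10), or 8 lower with library totals alone.

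Egfl7 had the largest rise of the 10 in Total_Hom against Total_WT. It stood at 132, 137 and 144 CPM in Total_Hom, 87.1, 82.1 and 79.6 CPM in Total_Het and 76.2, 72.0 and 79.6 CPM in Total_WT. Total_Hom lay far above the other 2 groups. Egfl7 rose in Total_Hom against Total_Het (log2 0.73 ± 0.03, edgeR adjusted p 9.05e-41) and against Total_WT (log2 0.86 ± 0.03, edgeR adjusted p 1.69e-47). It was the 1 gene called higher in Total_Het against Total_WT (log2 0.13 ± 0.04, edgeR adjusted p 0.00156), where the lowest Total_Het library lay barely above the highest Total_WT library and library totals alone gave -0.05. In nuclear RNA Egfl7 stood at 72.7, 72.5 and 67.9 CPM in Nuclear_Hom, 73.2, 68.5 and 61.0 CPM in Nuclear_Het and 62.3, 64.6 and 61.5 CPM in Nuclear_WT. Nuclear_Het overlapped both other groups. It rose in Nuclear_Hom against Nuclear_WT (log2 0.19 ± 0.04, edgeR adjusted p 0.000222) and, less firmly, in Nuclear_Het against Nuclear_WT (log2 0.12 ± 0.04, edgeR adjusted p 0.0127), where leaving out Nuclear_Het replicate 1 gave 0.07 and no call, replicate 2 gave 0.11 and no call, and replicate 3 gave 0.19. DESeq2 gave 0.11 and no call. Nuclear_Hom differed from Nuclear_Het by log2 0.06 ± 0.04, edgeR adjusted p 0.244, or 0.12 and a call without Nuclear_Het replicate 1. Egfl7 hosts the endothelial microRNA gene Mir126a on its strand, and its exons overlap Mir126b and Agpat2 on the opposite strand. With no strand setting stated, reads of these genes may be mixed.

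Emcn varied least. It stood at 127, 123 and 124 CPM in Total_Hom, 107, 109.9 and 106 CPM in Total_Het and 128, 125 and 121 CPM in Total_WT. Total_Hom and Total_WT overlapped, and Total_Het lay below both. Emcn rose in Total_Hom against Total_Het (log2 0.21 ± 0.03, edgeR adjusted p 1.42e-09) and fell in Total_Het against Total_WT (log2 -0.21 ± 0.03, edgeR adjusted p 3.71e-09, or -0.12 and no call with Total_WT replicate 1 as deposited). Total_Hom differed from Total_WT by log2 0.01 ± 0.03, edgeR adjusted p 0.9. In nuclear RNA Emcn stood at 104, 106 and 107 CPM in Nuclear_Hom, 106, 102 and 105 CPM in Nuclear_Het and 98.7, 97.0 and 101 CPM in Nuclear_WT. Nuclear_WT was lowest by a small margin. It rose in Nuclear_Hom against Nuclear_WT (log2 0.10 ± 0.04, edgeR adjusted p 0.012; not called without Nuclear_WT replicate 2, at 0.09) and in Nuclear_Het against Nuclear_WT (log2 0.09 ± 0.04, edgeR adjusted p 0.0319). The call in Nuclear_Het was lost with DESeq2, RLE size factors or no low-count filter and without any of 4 single libraries (Nuclear_WT replicate 1 or 2, Nuclear_Het replicate 1 or 3), at 0.07 to 0.08. Nuclear_Hom differed from Nuclear_Het by log2 0.02 ± 0.04, edgeR adjusted p 0.747.

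Plvap and Ehd3, the markers of peritubular and glomerular capillaries, both rose in homozygous against heterozygous mice in both fractions. Plvap stood at 442, 459.9 and 465 CPM in Total_Hom, 265, 248 and 257 CPM in Total_Het and 374, 364 and 377 CPM in Total_WT. The 3 groups did not overlap. Plvap rose in Total_Hom against Total_Het (log2 0.83 ± 0.02, edgeR adjusted p 9.18e-70) and against Total_WT (log2 0.29 ± 0.02, edgeR adjusted p 9.72e-25), and fell in Total_Het against Total_WT (log2 -0.54 ± 0.02, edgeR adjusted p 5.43e-48). In nuclear RNA Plvap stood at 280.2, 289 and 287 CPM in Nuclear_Hom, 259, 264 and 255 CPM in Nuclear_Het and 242, 241 and 235 CPM in Nuclear_WT, again without overlap. It rose in Nuclear_Hom against Nuclear_WT (log2 0.26 ± 0.03, edgeR adjusted p 2.21e-14), in Nuclear_Hom against Nuclear_Het (log2 0.13 ± 0.03, edgeR adjusted p 1.81e-05) and in Nuclear_Het against Nuclear_WT (log2 0.13 ± 0.03, edgeR adjusted p 2.54e-05).

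Ehd3, a membrane-remodelling ATPase, stood at 75.7, 75.3 and 72.7 CPM in Total_Hom, 52.2, 56.2 and 52.2 CPM in Total_Het and 68.5, 70.9 and 75.0 CPM in Total_WT. Total_Het lay below the other 2 groups, which overlapped. It rose in Total_Hom against Total_Het (log2 0.48 ± 0.04, edgeR adjusted p 8.92e-23) and fell in Total_Het against Total_WT (log2 -0.42 ± 0.04, edgeR adjusted p 1.28e-18, or -0.26 and no call with Total_WT replicate 1 as deposited). Total_Hom differed from Total_WT by log2 0.06 ± 0.04, edgeR adjusted p 0.136, or 0.10 and a call without Total_WT replicate 3. In nuclear RNA Ehd3 stood at 52.8, 54.4 and 57.1 CPM in Nuclear_Hom, 41.7, 45.3 and 43.5 CPM in Nuclear_Het and 39.0, 39.8 and 42.9 CPM in Nuclear_WT. Nuclear_Hom lay above the other 2 groups. Its rise there was the largest of the 10 genes, against Nuclear_WT (log2 0.44 ± 0.05, edgeR adjusted p 1.05e-13) and against Nuclear_Het (log2 0.32 ± 0.05, edgeR adjusted p 4.86e-09). The rise in Nuclear_Het against Nuclear_WT (log2 0.12 ± 0.05, edgeR adjusted p 0.0338) was not called with DESeq2 or no low-count filter, nor without any of 4 single libraries (Nuclear_WT replicate 1 or 2, Nuclear_Het replicate 2 or 3), at 0.08 to 0.11.

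The log2 ratio of Ehd3 to Plvap within a library was -2.55, -2.61 and -2.68 in Total_Hom, -2.34, -2.14 and -2.30 in Total_Het and -2.45, -2.36 and -2.33 in Total_WT. Total_Hom lay below both other total groups, by -0.35 against Total_Het and -0.23 against Total_WT. In nuclear RNA the ratio was -2.41, -2.41 and -2.33 in Nuclear_Hom, -2.63, -2.54 and -2.55 in Nuclear_Het and -2.64, -2.60 and -2.45 in Nuclear_WT. Here Nuclear_Hom lay above both, by 0.19 against Nuclear_Het and 0.18 against Nuclear_WT. In each of these 4 comparisons the groups did not overlap, and the exact two-sided permutation test of 3 against 3 gave p = 0.1, the smallest it allows, or 0.129 adjusted over the 9 comparisons made. It gave 0.2 for Total_Het against Total_WT (difference 0.12) and 1 for Nuclear_Het against Nuclear_WT (-0.01). Between fractions the exact p was 0.1 in each genotype, with differences of 0.23 in Nuclear_Hom against Total_Hom, -0.31 in Nuclear_Het against Total_Het and -0.18 in Nuclear_WT against Total_WT. No comparison could reach 0.05. Among other glomerular endothelial markers 4 of 8 tested were higher and 3 lower (median log2 0.11) in Total_Hom against Total_Het, or 4 and 1 with library totals alone: Plat, tissue plasminogen activator, rose (log2 0.89 ± 0.03, edgeR adjusted p 1.81e-58), as did Tspan7 (log2 0.64 ± 0.05, edgeR adjusted p 1.19e-26), while lipoprotein lipase, Lpl, fell (log2 -0.59 ± 0.02, edgeR adjusted p 1.14e-68). In Total_Hom against Total_WT 1 of 8 tested was higher and 4 lower (median log2 -0.13). This list (9 genes) summed to 1006 ± 6.65 CPM in Total_Hom, 1230 ± 19.8 in Total_Het and 1377 ± 10.3 in Total_WT. Among the total groups its sum was thus lowest in Total_Hom, where that of the 10 genes was highest. A sum follows its most abundant genes, and by gene the list was split, as given above. In nuclear RNA its sum was highest in Nuclear_Hom, at 883 CPM against 844 in Nuclear_Het and 852 in Nuclear_WT. Lpl and Plat are expressed by other kidney cells too.

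Among genes of caveolae, EHD proteins and their partners 7 of 9 tested were higher and 1 lower (median log2 0.55) in Total_Hom against Total_Het. Ehd4, a close relative of Ehd3 (log2 0.87 ± 0.03, edgeR adjusted p 1.36e-60), the caveolin Cav2 (log2 0.72 ± 0.03, edgeR adjusted p 8.82e-43) and the caveolar coat protein Ptrf (log2 0.69 ± 0.03, edgeR adjusted p 5.4e-41) rose. In Total_Het against Total_WT 2 of 9 tested were higher and 7 lower (median log2 -0.52), with Ptrf (log2 -0.72 ± 0.03, edgeR adjusted p 2.14e-43) and Cav2 (log2 -0.62 ± 0.04, edgeR adjusted p 6.57e-36) among those that fell. In Nuclear_Hom against Nuclear_Het 3 of 9 tested were higher and 3 lower (median log2 -0.06), and Ehd4 fell (log2 -0.30 ± 0.03, edgeR adjusted p 2.27e-13) where Ehd3 rose.

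Nuclear RNA held less of these transcripts than total RNA in homozygous and wild-type mice. All 10 genes were lower in Nuclear_Hom than in Total_Hom (median log2 -0.71, all genes 0.01), where 60.3% of all genes were called, 30.5% higher and 29.8% lower, and no library overlapped. All 10 were lower in Nuclear_WT than in Total_WT as well (median log2 -0.58, all genes -0.01), with 61.7% of all genes called, 30.9% higher and 30.8% lower. In Nuclear_Het against Total_Het 6 were lower, 0 higher and 4 not called (median log2 -0.26, all genes 0.04), with 63.6% called, 33.4% higher and 30.2% lower, and the split turned to 4 higher and 3 lower with library totals alone, which put the median of all genes at 0.24. That scaling called 11055 of all 15410 genes there. In Nuclear_WT against Total_WT it put the median of all genes at -0.17. With Total_WT replicate 1 as deposited 4 rather than 6 genes (9054 of all 15387 tested) were called in Nuclear_Het against Total_Het. Eng and Ehd3 were no longer among them, at -0.22 and -0.30. That comparison holds no Total_WT library but takes its spread estimate from all 18 libraries. Its values for Eng and Ehd3 were -0.22 and -0.30 after the subtraction too. Nuclear and total libraries had opposite Xist and Y-linked status in all 3 genotypes, so they were not 2 fractions of the same animals, unless libraries carry exchanged labels, which was not tested. Each difference and ratio between fractions therefore sets libraries of different sex against each other, as labelled.

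The largest difference between fractions was that of Flt1 in homozygous mice (log2 -1.23 ± 0.03, edgeR adjusted p 3.58e-71), against log2 -0.53 ± 0.04, edgeR adjusted p 2.04e-27 in heterozygous and log2 -0.84 ± 0.04, edgeR adjusted p 3.3e-48 in wild-type mice. Egfl7 was close behind in homozygous mice (log2 -0.96 ± 0.04, edgeR adjusted p 1.34e-24) but differed by only -0.29 ± 0.05 and -0.29 ± 0.05 in heterozygous and wild-type mice. Ehd3 and Eng differed most in wild-type mice, by log2 -0.83 ± 0.04 and -0.79 ± 0.03. Kdr differed by log2 -0.89 ± 0.04, edgeR adjusted p 6.23e-48 in heterozygous mice and by -0.58 ± 0.04 in homozygous and -0.71 ± 0.04 in wild-type mice. With library totals alone these were -0.69, -0.59 and -0.87, so which genotype differed most depends on the scaling. Plvap, Pecam1, Cdh5 and Emcn showed no called difference in heterozygous mice, at log2 0.02 ± 0.03, -0.03 ± 0.03, -0.05 ± 0.05 and -0.05 ± 0.03, beside -0.67 ± 0.02, -0.74 ± 0.03, -0.74 ± 0.04 and -0.24 ± 0.03 in homozygous mice.

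The nuclear-to-total ratio was tested between genotypes as an interaction over all 18 libraries. In heterozygous against wild-type mice it rose for 8 of the 10 genes, fell for Kdr and was not called for Egfl7 (median log2 0.36, all genes 0.07), where 70.7% of all genes were called, 37.8% higher and 32.9% lower. Plvap rose most (log2 0.66 ± 0.04, edgeR adjusted p 3.74e-39), then Eng (log2 0.57 ± 0.04, edgeR adjusted p 3.17e-26) and Ehd3 (log2 0.53 ± 0.06, edgeR adjusted p 1.8e-13). Kdr went the other way (log2 -0.18 ± 0.05, edgeR adjusted p 0.00161), although library totals alone gave 0.18 for it, a median of 0.43 for all genes and 10 genes higher. That scaling called 12025 of all 15410 genes. In homozygous against wild-type mice the ratio rose for Ehd3, Eng and Kdr and fell for Egfl7, Flt1, Tek, Cdh5 and Pecam1 (median log2 -0.13, all genes 0.02), where 56.1% of all genes were called, 28.4% higher and 27.7% lower. The ends were Egfl7 (log2 -0.67 ± 0.06, edgeR adjusted p 8.36e-13) and Ehd3 (log2 0.38 ± 0.06, edgeR adjusted p 9.8e-09). Library totals alone turned that split to 5 higher and 3 lower, with a median of 0.17 for all genes and 8852 of all 15410 called. It ended the calls of Pecam1 and Cdh5 at -0.09 and -0.14. Without Total_WT replicate 1, 9 of the 10 genes (10631 of all 15590 tested) were called in heterozygous against wild-type mice. In homozygous against wild-type mice 8 of the 10 (8398 of all 15590) were. With the column of that library as deposited 3 genes (10139 of all 15387 tested) were called in heterozygous against wild-type mice, Eng and Ehd3 not among them at 0.36 and 0.35. In homozygous against wild-type mice 5 genes (7234 of all 15387) were then called, and Eng and Ehd3 stood at 0.17 and 0.20. The call of Kdr in homozygous mice (log2 0.13 ± 0.05, edgeR adjusted p 0.0267) was also lost with DESeq2, with no low-count filter and without any of 3 single libraries (Nuclear_WT replicate 2, Nuclear_Hom replicate 3, Total_Hom replicate 2), and its value was -0.13 with Total_WT replicate 1 as deposited. Emcn (log2 0.10 ± 0.05, edgeR adjusted p 0.0503) became a call with library totals alone (0.24), with a floor of 5 CPM on the mean level (0.13) and without any of 4 single libraries (Nuclear_WT replicate 3, Nuclear_Hom replicate 1, Total_WT replicate 3, Total_Hom replicate 1). The call of Kdr in heterozygous mice ended at -0.11 with a floor of 5 CPM on the mean level.

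**Figure D4:**
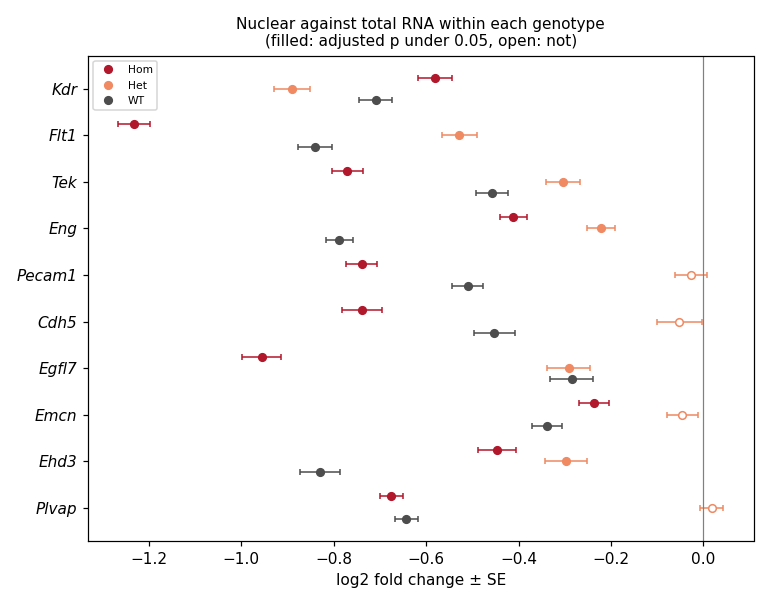
Log2 difference of nuclear from total RNA for each endothelial gene (horizontal axis, edgeR, bars of 1 SE) in Hom, Het and WT mice. Hom and WT values lie below 0 for all 10 genes and reach -1.23 for Flt1 in Hom mice, while 4 Het values lie between -0.05 and 0.02, and with library totals alone 4 Het values were called above 0.

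Most other pan-endothelial genes also rose in total RNA of homozygous against heterozygous mice. Among further pan-endothelial genes 22 of 24 tested were higher and 1 lower (median log2 0.72) in Total_Hom against Total_Het: the VE-PTP phosphatase gene Ptprb (log2 0.92 ± 0.03, edgeR adjusted p 1.14e-62), the adrenomedullin receptor Calcrl (log2 1.26 ± 0.05, edgeR adjusted p 1.07e-52) and Tie1 led by p. In Total_Hom against Total_WT 19 of 24 tested were higher and 1 lower (median log2 0.41), with the ETS factor Erg among those that rose (log2 0.78 ± 0.05, edgeR adjusted p 1.54e-32), and in Total_Het against Total_WT 0 of 24 tested were higher and 19 lower (median log2 -0.34). Their sum was 1080 ± 3.14 CPM in Total_Hom, 645 ± 10.3 in Total_Het and 822 ± 10.2 in Total_WT. In Nuclear_Hom against Nuclear_Het 0 of 24 tested were higher and 4 lower (median log2 -0.01), for example Cd34 (log2 -0.29 ± 0.04, edgeR adjusted p 9.34e-09), beside 6 higher and 1 lower of the 10. In Nuclear_Hom against Nuclear_WT 12 of 24 tested were higher and 0 lower (median log2 0.18), or 18 higher with library totals alone. With Total_WT replicate 1 as deposited, 4 rather than 19 of these genes were lower in Total_Het against Total_WT.

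Among arterial markers 7 of 8 tested were higher and 0 lower (median log2 0.85) in Total_Hom against Total_Het, for example the endothelin gene Edn1 (log2 1.53 ± 0.12, edgeR adjusted p 1.63e-23), and 0 of 8 tested were higher and 3 lower (median log2 -0.15) in Nuclear_Hom against Nuclear_Het, where Edn1 fell (log2 -0.47 ± 0.13, edgeR adjusted p 0.00138). Among peritubular and vein markers 4 of 8 tested were higher and 1 lower (median log2 0.12) in Total_Hom against Total_Het: von Willebrand factor, Vwf, rose (log2 1.56 ± 0.07, edgeR adjusted p 5.97e-49), and the apelin receptor Aplnr fell (log2 -3.66 ± 0.19, edgeR adjusted p 3.66e-40). Among lymphatic markers 4 of 5 tested were higher and 0 lower (median log2 0.50) in the same comparison. Among Notch genes of vessels 5 of 8 tested were higher and 1 lower (median log2 0.49), where Notch1 rose (log2 0.69 ± 0.05, edgeR adjusted p 1.16e-28) and the tip-cell ligand Dll4 fell (log2 -0.66 ± 0.09, edgeR adjusted p 1.09e-11).

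Markers of activated endothelium and of other cells moved with the genotypes. The sum of 5 activation markers was 78.1 ± 3.48 CPM in Total_Hom, 46.3 ± 2.34 in Total_Het and 69.0 ± 0.77 in Total_WT, and 37.9 ± 0.32 CPM in Nuclear_Hom, 64.6 ± 1.71 in Nuclear_Het and 27.8 ± 1.52 in Nuclear_WT. All 5 fell in Nuclear_Hom against Nuclear_Het, among them Icam1 (log2 -0.72 ± 0.06, edgeR adjusted p 4.85e-18) and Vcam1 (log2 -0.75 ± 0.07, edgeR adjusted p 2.81e-16), the leukocyte adhesion molecules, and 4 of 5 rose in Total_Hom against Total_Het, Icam1 included (log2 0.68 ± 0.05, edgeR adjusted p 1.41e-24). Podocyte markers all rose in Total_Hom against Total_Het (10 of 10, median log2 0.78) and all fell in Total_Het against Total_WT (10 of 10, median log2 -0.92). In nuclear RNA 0 of 10 rose and 8 fell in Nuclear_Hom against Nuclear_Het (median log2 -0.40), and 9 rose and 0 fell in Nuclear_Het against Nuclear_WT (median log2 0.55). In total RNA they had sums of 517 ± 3.79 CPM in Total_Hom, 286 ± 1.80 in Total_Het and 522 ± 9.45 in Total_WT. Immune markers (10 genes) summed to 1116 ± 6.50 CPM in Total_Hom, 1141 ± 2.57 in Total_Het and 889 ± 17.6 in Total_WT, and to 604 ± 10.1 CPM in Nuclear_Hom, 1723 ± 46.7 in Nuclear_Het and 720.3 ± 11.9 in Nuclear_WT. Proximal tubule markers summed to 29621 ± 240.5 CPM in Total_Hom and 30709 ± 174 in Total_Het, where 3 rose and 7 fell. Of these 10, 9 rose and 1 fell in Nuclear_Hom against Nuclear_Het (median log2 0.30), and in Nuclear_Het against Nuclear_WT 1 rose and 7 fell (median log2 -0.41). Mesangial and mural markers (11 genes) summed to 351 ± 8.73 CPM in Total_Hom, 269 ± 5.86 in Total_Het and 379 ± 3.74 in Total_WT. The part of these cell types in the levels of the 10 endothelial genes was not tested.

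**Figure D5:**
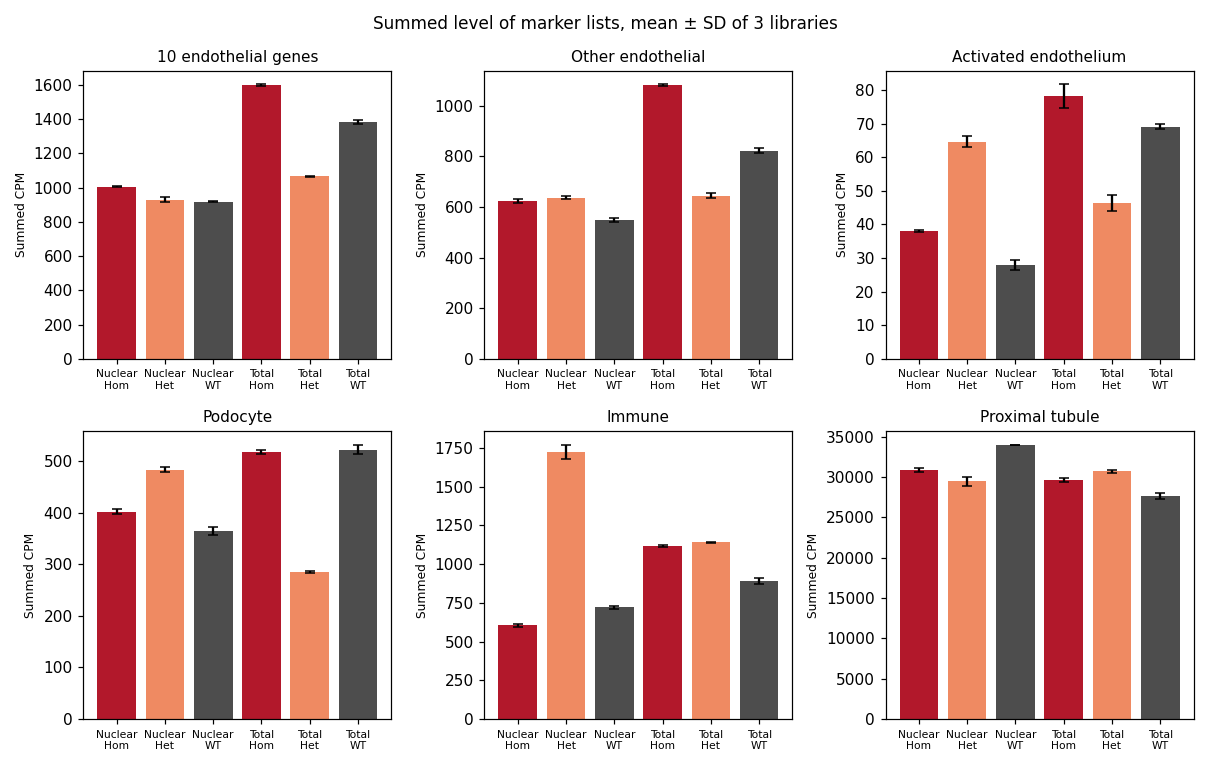
Summed CPM of 6 marker lists (bars from 0: mean of 3 libraries, lines: SD) in the 6 groups. The sums of the 10 endothelial genes, of 24 other endothelial genes and of podocyte markers are lowest in Total_Het among the total groups, and the immune sum is highest in Nuclear_Het.

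The mean profile of the 10 genes over the 6 groups, each gene on the log2 scale and centred on its own mean, was -0.18 in Nuclear_Hom, -0.30 in Nuclear_Het, -0.28 in Nuclear_WT, 0.50 in Total_Hom, -0.04 in Total_Het and 0.30 in Total_WT. Among the 11525 genes that averaged 5 CPM or more, those closest to it by root mean square difference over the 6 groups were Acvrl1 (0.0258 log2 units), the receptor that pairs with endoglin, and the Notch receptor Notch4 (0.0283). Then came Arhgef15 (0.0467), Prex2 (0.0653), Nova2 (0.0686), Rnf144a (0.0729), Nuak1 (0.0765) and Ptpru (0.0796), with 1 predicted gene model among them. The median distance of all these genes was 0.354. The 10 genes themselves lay between 0.0784 (Tek) and 0.239 (Kdr) from the mean to which each contributes, with Pecam1 at 0.0794 next to Tek and Flt1 at 0.218 next to Kdr.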

How the data were processed

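RNA was measured in 18 libraries, 3 in each of 6 groups. TRIzol served for extraction and the KAPA Stranded mRNA-Seq kit for library construction, per the labels' protocols. Per the submitters' processing notes the authors used CASAVA, STAR 2.5.2b, featureCounts and DESeq2 with the mm9 build; the annotation and the strand setting are not given in the sources used here. The deposited values are raw counts per gene. The column of Total_WT replicate 1 was reduced by the sum of the 9 nuclear columns, and 0 genes lay below that sum.

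Counts were tested with edgeR 4.0.16 (R 4.3.3, limma 3.58.1): low-count filter of filterByExpr, TMM scaling, robust quasi-likelihood fit and test, Benjamini-Hochberg adjustment over all genes and a threshold of 0.05. The 9 nuclear and the 9 total libraries were fitted separately (15112 and 15051 genes), and all 18 together (15410 genes) for nuclear against total RNA and its ratio between genotypes. Results were recomputed with library totals alone, RLE size factors, DESeq2 1.42.0, 2 other filters, other sets of libraries in the fit, a replicate block, removal of Rn45s, the column of Total_WT replicate 1 as deposited, and each library left out. The tests were checked on simulated data. Levels are CPM over TMM-scaled totals, and CPM per kilobase of transcript for levels between genes. Python 3.11.15 and scipy 1.17.1 were used for ratios.

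All 10 genes are named. Of each further list, up to 3 genes with the smallest p in a comparison could be named there, with the 8 genes of the most similar profile. The 10 genes and all lists were chosen with earlier results of these data known.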

Additional observations from a re-analysis of the deposited data

Results flagged for a closer look

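The difference between nuclear and total RNA itself differed between genotypes for most of the 10 endothelial genes, by an interaction term over all 18 libraries (edgeR, adjusted p under 0.05). In homozygous against wild-type mice the log2 nuclear-to-total ratio differed by 0.38 for Ehd3, 0.38 for Eng and 0.13 for Kdr. It differed by -0.67 for Egfl7, -0.39 for Flt1, -0.31 for Tek, -0.29 for Cdh5 and -0.23 for Pecam1. In heterozygous against wild-type mice it differed by 0.66 for Plvap, 0.57 for Eng, 0.53 for Ehd3, 0.48 for Pecam1, 0.40 for Cdh5, 0.31 for Flt1, 0.29 for Emcn and 0.15 for Tek, and by -0.18 for Kdr. Among all genes 56.1% and 70.7% were called in these interactions. Both share the wild-type libraries, and Xist status changed with fraction in opposite directions in mutant and wild-type mice, so sex and genotype cannot be told apart here.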

How the results depend on the processing

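Of the 110 values of the 10 genes over 11 comparisons, all 110 kept their direction and their side of the threshold with Rn45s removed and with only the compared groups fitted, 108 with RLE size factors, 105 each with DESeq2, no low-count filter or a mean of at least 5 CPM, and 82 with library totals alone. DESeq2 called 4 of the 10 genes in Nuclear_Het against Nuclear_WT (edgeR 7). With Total_WT replicate 1 as deposited the counts were 5 in Total_Hom against Total_WT (8 after subtraction), 2 in Total_Het against Total_WT (10), 5 in the ratio of Hom against WT (8) and 3 in that of Het against WT (9), and 4 in Nuclear_Het against Total_Het (6). Nuclear_Het against Total_Het holds no Total_WT library but takes its spread estimate from all 18 libraries. Without Total_WT replicate 1 the counts were 8 in Total_Hom against Total_WT and 10 in Total_Het against Total_WT (8668 and 8723 of all 15214 genes). They were 8 in the ratio of Hom against WT and 9 in that of Het against WT (8398 and 10631 of all 15590). As deposited, the column held 200140709 counts, beside 181106189 in the 9 nuclear columns together. The part of these counts in the lost calls was not tested.

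With library totals alone, directions turned for Cdh5 in Nuclear_Het against Nuclear_WT (0.074), Emcn in Nuclear_Hom against Nuclear_Het (-0.039) and Total_Hom against Total_WT (-0.020), Egfl7 in Total_Het against Total_WT (-0.051) and Kdr in Total_Hom against Total_Het (0.11). They turned too for Pecam1, Emcn and Cdh5 in Nuclear_Het against Total_Het (0.17, 0.15 and 0.15), Plvap in the ratio of Hom against WT (0.11), and Kdr and Egfl7 in that of Het against WT (0.18 and 0.35). A mean of at least 5 CPM turned Pecam1 in Nuclear_Het against Total_Het (0.0050) and Egfl7 in the ratio of Het against WT (0.069), and 1 fit of all 18 libraries turned Emcn in Total_Hom against Total_WT (-0.00080). As deposited, Total_WT replicate 1 turned Kdr in Total_Het against Total_WT (0.014), Kdr and Emcn in the ratio of Hom against WT (-0.13 and -0.0020) and Tek in that of Het against WT (-0.015).

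Leaving out each library in turn kept 744 of 780 values. Values that changed sign ranged from -0.069 to 0.058 for Egfl7 in the ratio of Het against WT, -0.0028 to 0.12 for Egfl7 and -0.00019 to 0.027 for Emcn in Nuclear_Hom against Nuclear_Het, and -0.016 to 0.021 for Tek in Nuclear_Hom against Nuclear_WT. They ranged from -0.015 to 0.024 for Emcn in Total_Hom against Total_WT, and from -0.061 to 0.024 for Pecam1 and -0.0033 to 0.046 for Plvap in Nuclear_Het against Total_Het. The counts of called genes ranged from 5 to 7 in Nuclear_Het against Nuclear_WT, 6 to 8 in Nuclear_Hom against Nuclear_Het and 7 to 9 in the ratio of Hom against WT. The Ehd3 to Plvap ratio in Nuclear_Het against Nuclear_WT ranged from -0.048 to 0.043, above 0 without Nuclear_Het replicate 1 (0.018) or Nuclear_WT replicate 3 (0.043).

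Same-numbered libraries did not deviate together (correlations -0.115 to 0.0981; in 0 of 9 comparisons were all pairs over 0.1, and in 1 of 9 every library correlated best with its own number). With the replicate number as a block, 108 of 110 values kept their call and 2 gained one: Nuclear_Het against Nuclear_WT gave -0.11 for Cdh5 and the ratio of Hom against WT 0.10 for Emcn. The median chi-square between replicates of a group was 1.27 to 1.84 times that of counting noise, without Total_Hom replicate 2. Pairs with that library gave 4.28 and 4.32, and the part of its 7.12% Rn45s was not tested. These are values per pair of libraries, not per gene, and do not describe the endothelial genes alone. In the other pairs depth limits the values, as counting noise made up much of the spread. Beyond counting noise, edgeR's fitted coefficient of variation was 3.05% for nuclear, 3.90% for total and 3.54% for all 18 libraries. This spread is small, and whether replicates are separate animals was not tested.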
